A study of Brassica napus with 16 samples.

Results

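The genes described here are 200 genes of Brassica napus (oilseed rape) that were expressed in flower bud, silique and root and were low in young leaf. A gene qualified when its FPKM (fragments per kilobase of transcript, relative to all mapped fragments) was at least 1 in all 12 libraries of flower bud, silique and root and below 1 in all 4 libraries of young leaf. Of the 101040 genes listed, 451 qualified, and the 200 with the highest mean of the 3 tissue means were taken as members. The study profiled RNA of 2 cultivars, 2063A and B409, in 4 tissues, with 2 replicates in each of 8 groups. Young leaves came from seedlings aged 2 weeks in hydroponic culture, and roots were cut 7 d after planting on filter paper, both in a phytotron. Flower buds of up to 2 mm and siliques of 3 to 5 cm were taken from plants moved to the field. Tissue, plant age and growing place therefore cannot be told apart. The labels name no transgene, mutation or treatment.

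Oilseed rape joins the genomes of 2 ancestors, the A subgenome of Brassica rapa and the C subgenome of Brassica oleracea, and most of its genes are present as an A and a C copy (homeologs). A leaf is a photosynthetic organ, and its messenger RNA is dominated by a small number of very abundant transcripts, so other transcripts take up a smaller share of a library. A flower bud holds the developing floral organs, a silique is the pod with its seeds, and a seedling root has a growing tip and absorbing tissue. In whole tissues, fewer cells that express a gene and less RNA per cell cannot be told apart. The files give identifiers without gene names, and 0 of 123214 entries of the RefSeq gene table (assembly Da-Ae) carried one of these identifiers. No function is therefore stated for any member, marker genes of the tissues could not be checked, and only a few identifiers are printed per comparison. An identifier gives the chromosome, so that BnaC06g38840D lies on C06, whereas identifiers with "nn" name no chromosome, and those that begin with BnaU name no subgenome either.

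Relative depth could be read from the deposited values, because low FPKM values moved in steps of 1 fragment. This reading holds only if no other normalization between libraries was applied, which no source used here states. Set against replicate 1 of 2063A root, the libraries ranged in depth from 0.668 to 1.84. In young leaf, replicate 1 of 2063A was at 0.856 and replicate 2 at 1.81, and replicates 1 and 2 of B409 were at 1.02 and 1.71. Absolute depth is unknown. Separate plants for the replicates are not stated in the labels, so the tests below measure the spread between these libraries, which may be technical.

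Young leaf values chose the members and are given as a description only. "Silent" is too strong a word for most of them. Only 10 of the 200 members were listed at 0 in all 4 young leaf libraries, and 85 were listed at 0 in at least 1. The highest young leaf library of a member had a median of 0.693 FPKM, and for 84 members it lay at 0.75 or above. The lowest of the 12 other libraries had a median of 1.77 FPKM and was below 2 for 114 members. For 45 members the lowest other library was less than 2 times the highest young leaf library, whereas for 58 members it was at least 5 times and for 23 at least 10 times as high, counting those at 0. The members thus ran from genes lying just either side of the threshold to genes with a wide gap, as the plot of both extremes shows.

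**Figure D1:**
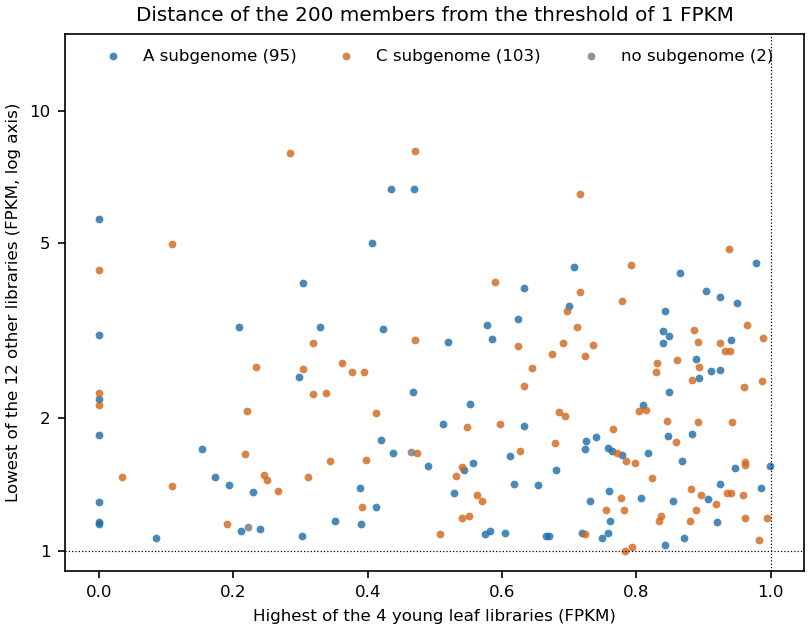
Each point is a member, with its highest young leaf library on the x axis (FPKM) and the lowest of its 12 other libraries on the y axis (FPKM, log axis), coloured by subgenome, and dotted lines mark 1 FPKM. The 10 members at the left edge were listed at 0 in every young leaf library, and points near the lower right corner lie close to the threshold on both sides.

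The listing at 0 was uneven over the young leaf libraries. Replicate 1 of 2063A, the shallowest of the 4, listed 66 members at 0, and replicate 2 of 2063A, the deepest, listed 19. The B409 libraries listed 39 and 36. The median member was at 0.178 and 0.5 FPKM in the 2063A replicates and at 0.362 and 0.359 in the B409 replicates. The part of depth in these counts was not tested.

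Young leaf also differed from the other tissues over the whole table. The 100 most abundant genes held 24% to 26.9% of summed FPKM in the young leaf libraries and 8.45% to 12.5% in the others. The median tested gene was at 1.88 to 2.24 FPKM in young leaf and at 3 to 3.72 elsewhere. Tested genes needed 1 FPKM in at least 2 of the 12 libraries of the other tissues, and this filter favours those tissues. Of all genes listed, unfiltered, 33483 to 35976 reached 1 FPKM in the young leaf libraries and 38499 to 41456 in the others. When the 16 libraries were first quantile normalized, which gives every library the same distribution of values, 127 genes met the thresholds in place of 451, and 87 of these were among the 200 members. The size of the group therefore depends on the scaling. Young leaf was not rescaled on its own.

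The same thresholds were met by far more genes for root than for young leaf. Expression of at least 1 FPKM in the 12 other libraries with less than 1 in the 4 of 1 tissue was found for 1903 genes in root, 451 in young leaf, 194 in flower bud and 44 in silique. Taken cultivar by cultivar, 1368 genes met the young leaf thresholds in the 8 libraries of 2063A and 1470 in those of B409. The 451 genes that met them in both were 33% of the first list and 30.7% of the second.

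The members were mostly genes of modest level. The mean of the 3 tissue means ran from 3.41 to 440 FPKM with a median of 5.32, and it reached 10 in 38 members, 20 in 11 and 100 in 1. At the end of the ranking, BnaA07g12410D was at 3.42 and BnaA07g26360D at 3.41. The next genes, BnaA06g36420D and BnaCnng58280D, were both at 3.4. The ranking has no break at its end.

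BnaCnng27420D stood far above the others. In root it was at 1220 FPKM in both 2063A libraries and at 1422 and 1383 in B409. In flower bud it was at 4.34 and 4.35 in 2063A and at 2.97 and 3.35 in B409, and in silique at 3.22 in both 2063A libraries and at 4.31 and 5.36 in B409. Its expression was thus concentrated in root, and in young leaf 2 of the 4 libraries listed it at 0 and the highest was 0.319.

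BnaAnng27540D, the next in rank, was high in both root and silique. Its root libraries were at 170 and 162 in 2063A and at 171 in both B409 replicates. Its silique libraries were at 105 and 114 in 2063A and at 77.9 and 84.2 in B409, while flower bud ranged from 1.7 to 7.4.

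The members listed at 0 throughout young leaf shared no single pattern elsewhere. BnaC06g38840D (rank 6) had 33.8 to 49.4 FPKM in root and 2.28 to 3.21 in silique. In flower bud it was at 9.83 and 11.4 in 2063A and at 62.4 and 72.2 in B409. BnaA09g01000D was nearly level over the tissues, with no library of the 12 below 5.69. It was at 8.84 ± 2.03 in root, 8.04 ± 2.19 in flower bud and 9.77 ± 1.97 in silique (SD, n = 4 each, both cultivars together). This spread includes a cultivar difference, with 2063A lower than B409 (limma log2 change over tissues -0.52, SE 0.06, adjusted p = 3.0e-05). BnaA05g34670D was highest in silique, at 24.1 ± 2.58, against 9.98 ± 0.708 in root and 3.94 ± 0.862 in flower bud (SD, n = 4 each, both cultivars together). These examples were chosen after their values were seen.

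**Figure D2:**
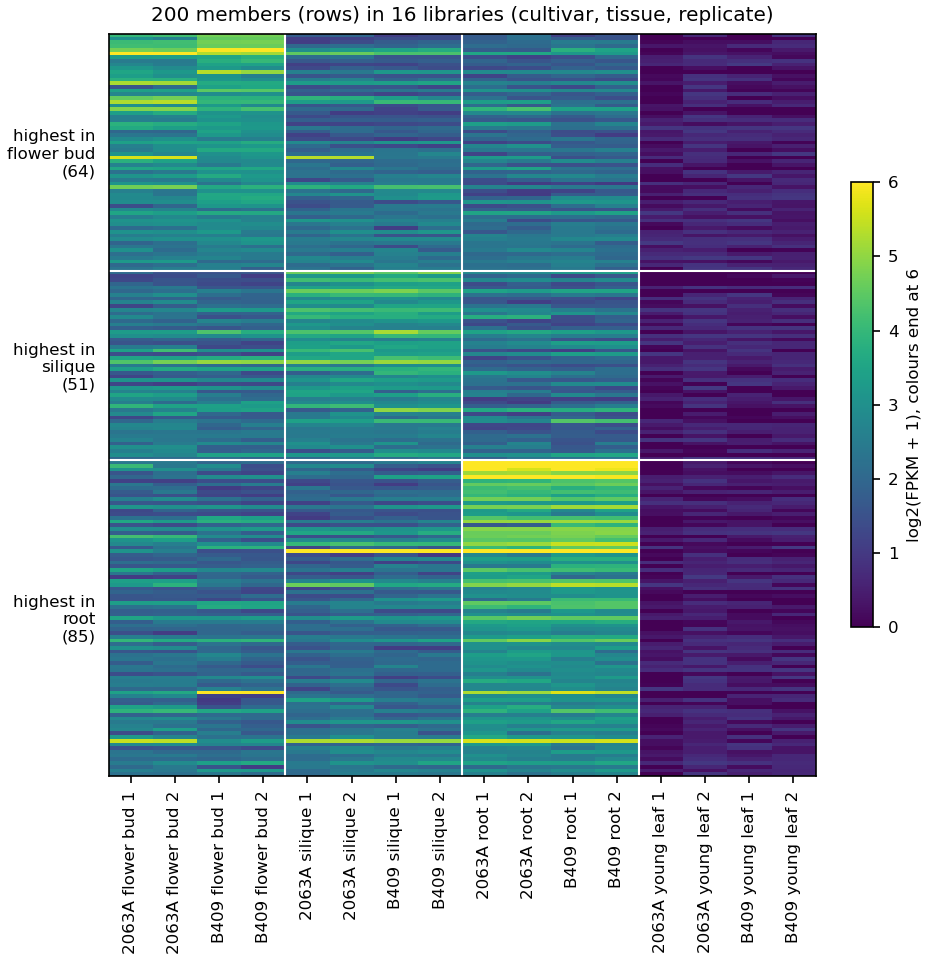
Rows are the 200 members, grouped by the tissue with the highest mean and sorted within a group by that tissue's share, and columns are the 16 libraries, with colour giving log2(FPKM + 1) up to 6. The young leaf columns are dark by choice of the genes, and the 85 members highest in root, 64 in flower bud and 51 in silique form the bright blocks.

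All 6 possible orders of the 3 expressing tissues occurred among the members. Root had the highest mean in 85 members (42.5%), flower bud in 64 (32%) and silique in 51 (25.5%). Over all 53057 genes tested, the shares were 35.7% for root, 40.6% for flower bud and 23.8% for silique. The most frequent order was root, flower bud, silique, in 47 members, and the least frequent was silique, root, flower bud, in 20 members (10%, against 5.42% of all genes tested). The order flower bud, silique, root, the most frequent over all genes at 27.5%, was found in 33 members (16.5%). Because the ranking rewards a high value in any 1 tissue, these shares are a description and carry no test.

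The separation between tissues varied widely. The highest tissue mean was less than 2 times the lowest in 37 members and at least 5 times in 47, with a median ratio of 3.35. The 4 root libraries lay above all 8 libraries of flower bud and silique in 57 members (28.5%), against 21.4% of all genes tested. For flower bud this held in 29 members (14.5%, against 16.6%) and for silique in 19 (9.5%, against 9.44%). The highest tissue was the same in both cultivars for 156 members, and the full order of 3 tissues for 107. In the other members the order of the means differed between the cultivars. Each mean is of 2 libraries and no separation was required, so near ties count as differences. Agreement between the cultivars was not counted over all genes.

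The tests between tissues used limma on log2(FPKM + 1) over the 12 expressing libraries. Calls required a change of at least 1 on the log2 scale and an adjusted p below 0.05 (Benjamini-Hochberg over all 53057 genes). In these contrasts 145 of the 200 members (72.5%) were called at least once, against 51.5% of all genes tested, and 55 in none. Each tissue enters a pair of contrasts, so the contrasts are not independent of each other.

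Root against flower bud gave 60 members higher in root and 42 lower. These are 30% and 21% of the members, where 19.3% and 21.8% of all genes tested were called. Members had a median change of 0.13, against -0.22 over all genes. After quantile normalization these medians were 0.25 and -0.11, so the scaling moved the whole table by about as much as it moved the members. The largest rises were those of BnaCnng27420D (log2 change 8.12, SE 0.07, adjusted p = 1.8e-14) and BnaAnng27540D (log2 change 5.26, SE 0.09, adjusted p = 3.0e-12), whose values are given above.

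Among the members lower in root than in flower bud, BnaC06g33270D changed most. It was at 19.4 and 25.7 FPKM in flower bud of 2063A and at 31.9 and 30.5 in B409, and at 2.72 to 3.22 in the 4 root libraries (log2 change -2.79, SE 0.10, adjusted p = 5.5e-10). BnaC03g76850D was at 15 and 16.8 in flower bud of 2063A, at 25.6 and 25.4 in B409 and at 1.26 to 3.69 in root (log2 change -2.73, SE 0.13, adjusted p = 1.0e-08). For both genes every flower bud library lay above every root library.

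Root against silique gave 59 members higher in root and 37 lower, or 29.5% and 18.5%, against 17.5% and 17.2% of all genes tested. The median change was 0.29 for the members and 0 over all genes. BnaCnng27420D had again the largest rise (log2 change 8.05, SE 0.07, adjusted p = 1.2e-14). BnaUnng00740D, whose identifier names no subgenome, followed. It was at 143 and 142 in root of 2063A and at 143 and 158 in B409, against 1.92 to 6.44 in silique (log2 change 4.96, SE 0.36, adjusted p = 3.1e-07). Its flower bud replicates were far apart, at 15.7 and 4.25 in 2063A and at 6.58 and 1.68 in B409.

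In the other direction BnaC06g33270D was again the most changed, with silique libraries from 26 to 33.3 FPKM (log2 change -2.99, SE 0.10, adjusted p = 3.2e-10). It was thus close to equal in flower bud and silique and low in root. BnaCnng56690D was at 15.1 and 18 in silique of 2063A, at 8.18 and 8.57 in B409 and at 1.17 to 2.03 in root (log2 change -2.30, SE 0.16, adjusted p = 2.3e-07).

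Flower bud and silique were more alike. Here 38 members were called higher in flower bud and 25 lower, which is 19% and 12.5% of the members against 8.94% and 9.12% of all genes tested. The median change was 0.06 both for the members and over all genes, and that of the members was -0.02 after quantile normalization. Both directions were therefore called more often among members than over the table, with no shift of their centre. Members have at least 1 FPKM in every library of these tissues, whereas a tested gene needs that in only 2 libraries.

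BnaA10g11120D showed the largest rise in flower bud over silique. It was at 16.1 and 16.9 FPKM in flower bud of 2063A, at 25.2 and 25.7 in B409 and at 1.09 to 2.8 in silique (log2 change 2.90, SE 0.09, adjusted p = 1.1e-09). BnaC06g38840D was next (log2 change 2.89, SE 0.10, adjusted p = 2.2e-09), although its flower bud level depended on the cultivar. Of the members higher in silique, BnaAnng27540D (log2 change -4.43, SE 0.09, adjusted p = 4.4e-11) was followed by BnaA03g44340D. The latter was at 23.9 and 26.9 in silique of 2063A, at 21.1 and 28.6 in B409, at 1.83 to 3.18 in flower bud and listed at 0 in all 4 young leaf libraries (log2 change -3.02, SE 0.13, adjusted p = 1.2e-08).

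**Figure D3:**
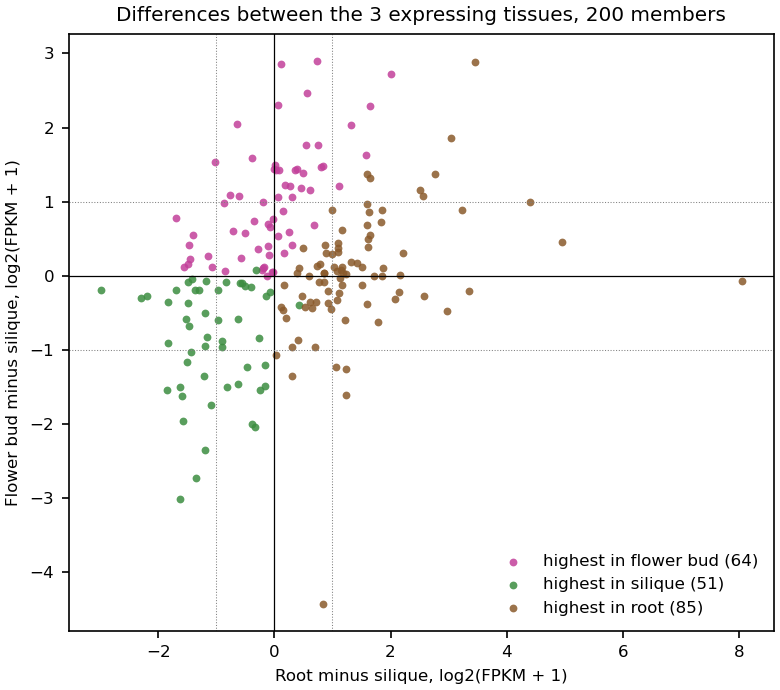
Each point is a member, with its root minus silique difference on the x axis and its flower bud minus silique difference on the y axis, both in log2(FPKM + 1) averaged over the cultivars, coloured by the tissue with the highest mean, and dotted lines mark a change of 1. The point at the far right is BnaCnng27420D (8.05) and the lowest point is BnaAnng27540D (-4.43).

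Put together by tissue, 41 members (20.5%) were called higher in root than in both other tissues, against 14.9% of all genes tested, and 20 (10%) lower than in both, against 11.4%. For flower bud the counts were 18 higher (9%, against 6.22%) and 14 lower (7%, against 2.97%). For silique they were 11 higher (5.5%, against 5.64%) and 12 lower (6%, against 1.19%).

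By their identifiers, 95 members belonged to the A subgenome, 103 to the C subgenome and 2 to neither. A genes were 48% of the members with a subgenome, 46.1% of the 451 genes that met the thresholds, 49.3% of all genes tested and 44.2% of all genes listed. The members were thus divided between the subgenomes much like expressed genes in general. For comparison, A genes were 50.3% of the 1903 genes low in root only. No source used here says which A and which C member are copies of each other, so no pair was formed and no A to C ratio of a pair is stated. The assignment of reads that match both copies is likewise not stated, and values of near-identical copies are uncertain.

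The levels of the A and C members overlapped widely. The mean of the 3 tissue means had a median of 5.59 FPKM in A members, with quartiles of 4.11 and 8.89, and of 4.69 in C members, with quartiles of 3.97 and 8.13. Over all genes tested the medians were 3.87 for A and 4.05 for C. The median A member was above the median C member in each of the 8 flower bud and silique libraries, for example at 5.04 and 4.67 in replicate 1 of 2063A flower bud and at 5.06 and 4.12 in replicate 1 of B409 silique. In replicate 2 of B409 root the C members were higher, at 5.67 against 4.78. The member with the highest level, BnaCnng27420D, is a C gene.

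Root was the most frequent highest tissue in both subgenomes, in 37 A and 46 C members. Flower bud was highest in 29 A and 35 C members, and silique in 29 A and 22 C members. In root against silique, 23 A members were called higher in root and 20 lower, where 17.6% and 17% of all tested A genes were called. Of the C members, 34 were higher and 17 lower, where 17.3% of tested C genes were called in each direction. In root against flower bud, 26 A members were higher and 18 lower (19.4% and 22.1% of tested A genes), and 32 C members were higher and 24 lower (19.3% and 21.4% of tested C genes). No test of a difference between the subgenomes was made.

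Members lay on all 19 named chromosomes. A09 held the most, with 20 members (0.589% of its tested genes), and A02 and A04 held 2 each (0.0967% and 0.122%). The same-numbered C chromosomes did not mirror these counts: C09 held 12, C02 held 8 and C04 held 12. Few members were neighbours. Within 10 identifiers of each other lay 5 pairs. BnaUnng00730D and BnaUnng00740D have consecutive numbers, and both had a lower mean in silique than in flower bud. Both were highest in root, at 60.4 ± 9.82 and 147 ± 7.47 FPKM (SD, n = 4 each, both cultivars together). BnaAnng01650D and BnaAnng01660D are also consecutive, and both were lowest in silique, at 1.83 and 1.4, although root led in the first (18 against 6.87 in flower bud) and flower bud in the second (10.9 against 6.9 in root). The other pairs differed in the order of their tissues.

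The last comparison set 2063A against B409 in the 3 expressing tissues. Averaged over them, the members differed little. Only 4 members (2%) passed as higher in 2063A and 5 (2.5%) as higher in B409, against 4.24% and 4.03% of all genes tested. A member must reach 1 FPKM in both cultivars, which keeps out genes expressed in 1 cultivar only. The median change was 0.03 for the members and 0.04 over all genes. After quantile normalization 3 and 7 members were called.

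BnaCnng23250D was the one member called in all 3 tissues. In flower bud it was at 49 FPKM in both 2063A libraries and at 6.31 and 7.42 in B409, and in silique at 40 and 39.1 against 4.24 and 4.59. In root it was at 8.32 and 8.87 against 1.76 and 2.18 (log2 change over tissues 2.42, SE 0.06, adjusted p = 4.8e-10). The 2063A libraries also held more of it in young leaf, at 0.657 and 0.678, while both B409 libraries listed it at 0.

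BnaA08g30320D was higher in 2063A over the tissues (log2 change 1.13, SE 0.11, adjusted p = 1.0e-05), with the widest gap in root. There it was at 12.3 and 13.5 FPKM in 2063A and at 1.67 and 2.52 in B409. In silique the cultivars were close, at 15.3 and 12.8 against 12.6 and 11.7.

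On the side of B409, BnaC04g48430D was at 61.7 and 72 FPKM in flower bud against 25.7 and 24 in 2063A, and in root at 13.1 and 10.1 against 2.33 and 2.27. In silique it was at 10.2 and 12 against 6.71 and 8.17 (log2 change over tissues -1.28, SE 0.08, adjusted p = 4.3e-07). BnaC01g25220D was at 8.01 and 7.44 in flower bud of B409 against 1.66 and 2.94 in 2063A, and also higher in every B409 library of silique and root (log2 change over tissues -1.10, SE 0.12, adjusted p = 2.9e-05). For both genes the libraries of the cultivars did not overlap in any of the 3 tissues.

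Flower bud held most of the calls between cultivars. In that tissue 21 members passed as higher in 2063A and 12 as higher in B409, or 10.5% and 6%, against 7.1% and 5.73% of all genes tested. The lean to 2063A depended on the scaling: after quantile normalization 18 and 15 members were called, and the genes called over the whole table went from 3768 and 3042 to 3039 and 3539. The members' median difference in flower bud went from 0.06 to -0.07 with that normalization. In silique the counts were 2 and 6, against 4.6% and 4.95% of all genes. In root they were 6 and 5, against 5.61% and 5.66%. Of the 46 members called in at least 1 tissue, 41 were called in exactly 1, and 29 of these in flower bud. The levels of 106 members were within 1.5 times of each other between the cultivars in flower bud, against 146 for silique and 153 for root. No member was called in opposite directions in different tissues. These counts over tissues and within 1.5 times were made for members only. Over all genes tested, flower bud also had the most calls in both directions.

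By subgenome, flower bud had 11 A members called on the side of 2063A and 4 on that of B409, where 8.44% and 6.02% of tested A genes were called. Of the C members 9 and 8 were called, where 5.79% and 5.44% of tested C genes were. In silique the counts on these sides were 0 and 5 for A members (5.32% and 5.71% of tested A genes) and 2 and 1 for C members (3.9% and 4.19% of tested C genes). At an unadjusted limma p below 0.05 and with no minimum change, 14 A and 15 C members were higher in 2063A in silique. At that limit the counts were 34 A and 28 C members in flower bud and 19 and 13 in root. The share of all tested genes at that limit was not counted, nor were the members of each subgenome higher in B409. No lean to either cultivar can therefore be read from these counts. In root the calls were 3 and 2 for A members (6.94% and 5.98% of tested A genes) and 3 and 3 for C members (4.3% and 5.34% of tested C genes). The median difference between the cultivars lay between -0.04 and 0.06 on the log2 scale in each subgenome and tissue as deposited.

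**Figure D4:**
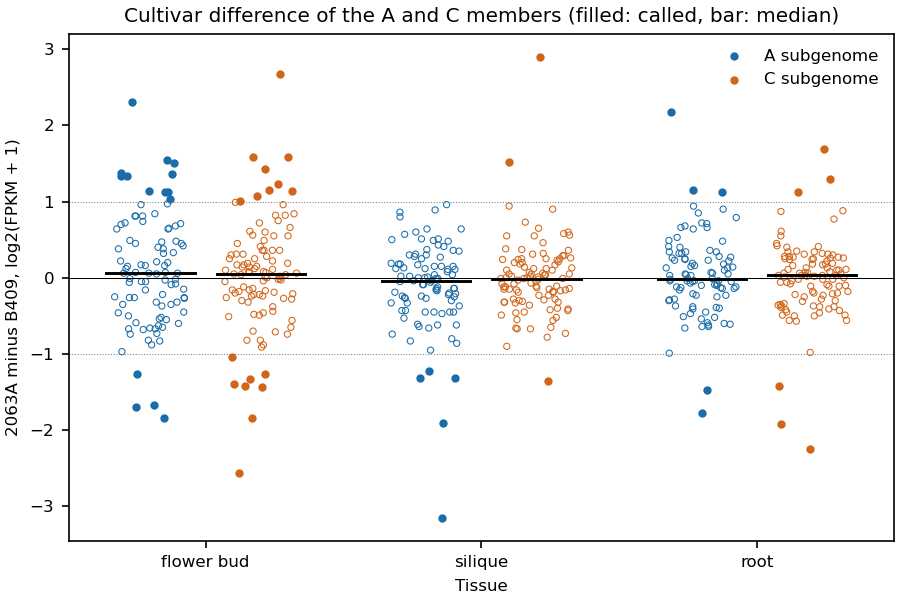
Points are the 95 A and 103 C members in each tissue, with the 2063A minus B409 difference in log2(FPKM + 1) on the y axis, filled points called and open points not, black bars the medians and dotted lines a change of 1. Called points are most frequent in flower bud, and the medians lie near 0 throughout.

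A moderated F test in the same limma fit asked whether the cultivar difference depended on which of the 3 tissues was looked at. It was called for 77 members (38.5%), against 29.4% of all genes tested. Of these, 41 were also called between the cultivars in at least 1 tissue and 36 in none. BnaA06g04040D had the smallest p (adjusted p = 2.0e-06). It was higher in 2063A in flower bud, at 37.3 and 40 FPKM against 14.6 and 14.9, and in root, at 9.18 and 9.45 against 3.61 and 3.69. In silique it was lower, at 9.22 and 8.36 against 15.5 and 15.3.

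BnaA07g07060D followed (adjusted p = 4.1e-06). In silique it was at 2.21 and 2.69 FPKM in 2063A and at 31.2 and 28.1 in B409 (log2 change -3.15, SE 0.13, adjusted p = 6.1e-08), whereas in root the cultivars overlapped, at 11.3 and 13.3 against 12.3 and 13.9. Silique was therefore its lowest tissue in 2063A and its highest in B409. BnaAnng21950D was nearly level over the tissues of 2063A, at 36.7 to 48.6, but in B409 its flower bud libraries were at 6.65 and 9.17, below its silique (33.4 and 32.9) and root (44.4 and 47) libraries (adjusted p = 7.5e-06).

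**Figure D5:**
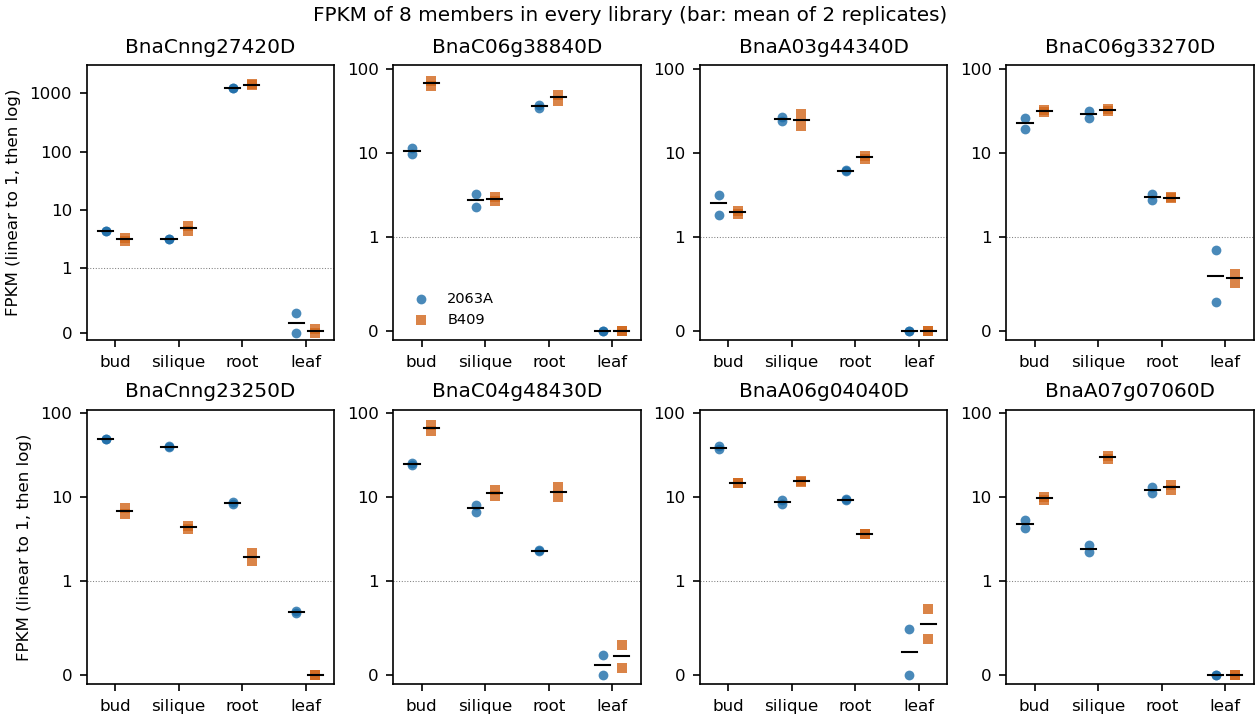
FPKM of 8 members in every library, by tissue, with circles for 2063A, squares for B409 and bars for the mean of 2 replicates, on an axis that is linear up to 1 and logarithmic above (the dotted line marks 1). BnaCnng27420D reaches 1220 to 1422 in root, BnaC06g38840D and BnaA03g44340D are listed at 0 in young leaf, and in BnaA07g07060D the cultivars part in silique.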

How the data were processed

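RNA of 16 libraries was measured. The authors deposited 1 file per library with FPKM per gene, per the file headers, and Cufflinks 2.1.1, TopHat2 and Trimmomatic are named, without settings, in the submitters' processing notes. No source used here states the genome build or annotation. Members and tests were chosen with earlier results of these data known.

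Relative depth is the inverse of the most frequent ratio of values under 0.3 FPKM to those of 1 root library; 87.7% to 96.9% of such ratios in the other libraries lay within 2% of ratios of whole numbers up to 6. Values were transformed to log2(FPKM + 1), which understates changes of low genes. Genes with at least 1 FPKM in at least 2 of the 12 expressing libraries were fitted with limma 3.58.1 in R 4.3.3 (1 mean per group, trend, 6 residual and 4.09 prior degrees of freedom). Young leaf was left out, because the rule makes its spread small. Tests are two-sided, each adjusted p comes from this fit, and the script was tested on simulated data. No p was computed for the members as a list.

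Named genes are the highest means, the members with the largest called changes without overlap of libraries, of which 2 per direction are printed, and those with the smallest interaction p. Classes by product name, tissue markers and A and C pairs had been planned, but the identifiers could not be matched. Alternatives were another pseudocount, no filter, other scalings, all 16 libraries, a replicate block, each library left out, and other thresholds and rankings.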

Additional observations from a re-analysis of the deposited data

Results flagged for a closer look

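The cultivar difference depended on the tissue, by a test of the difference itself, in 77 members (limma's moderated F, adjusted p below 0.05). The smallest adjusted p among them was 2.0e-06, for BnaA06g04040D, which was higher in 2063A in flower bud and root and higher in B409 in silique. For BnaA07g07060D the adjusted p was 4.1e-06, and its difference was largest in silique. For BnaAnng21950D it was 7.5e-06, with the cultivars far apart in flower bud.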

How the results depend on the processing

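Counts of members called stayed within 1.5 times under no filter, both other scalings, all 16 libraries and the replicate block, and every call of a gene named for its change or its interaction p was kept in each alternative run. With a pseudocount of 0.1, 6 members were higher in 2063A in silique and 10 in root. Replicate numbers did not pair the libraries (correlations of -0.053 to 0.042 over 15 pairs of groups). With the replicate block 74 members had a tissue-dependent cultivar difference, against 77. That count was 54 in the fit of all 16 libraries, 67 with a pseudocount of 0.1 and 81 after quantile normalization. Over all genes it went from 15583 to 9528 in the fit of all 16 libraries. Leaving out 1 library gave 3 to 7 members higher in B409 over the tissues (3 without B409 flower bud replicate 2), 2 to 5 higher in 2063A in silique (5 without 2063A silique replicate 1 or B409 silique replicate 2) and 6 to 10 higher in B409 there (10 without 2063A silique replicate 2).

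Leaving out 1 young leaf library from the rule gave 515 to 717 qualifying genes, the most without replicate 2 of 2063A, the deepest. Fewer libraries must then pass, so the count can only rise. All 200 members still qualified there, but only 118 stayed among the 200 highest, because genes newly let in ranked above the others. Quantile normalization before the rule left 127 genes, so the counts are smaller by construction: 56 were highest in root, 39 in flower bud and 32 in silique, and 60 were C genes. With thresholds of 0.5 and 2 FPKM only 62 and 55 of the 200 members remained, and 24 and 5 of the genes then chosen were at 0 in all young leaf libraries. Members beyond a new threshold no longer qualify. Only 62 had a highest young leaf library below 0.5, and 114 had a lowest other library below 2. At 2 FPKM these 114 are only a part of the loss. Other members still qualified there but ranked below genes newly let in. Why young leaf was low in these genes was not tested. Depth limits the reading of young leaf values near 0.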
